A study of Mus musculus with 21 samples.

Results

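The comparison described here set liver RNA from 3 libraries labelled Sting knockout and given carbon tetrachloride (CCl4) against 3 wild-type liver libraries given oil. Its members were the protein-coding genes whose mean over these 6 libraries was at least 1 FPKM. FPKM here is a read count that the authors scaled to gene length and to a library size that differs from the read total. The members were 10259 of the 22046 coding genes in a table of 54532 genes. The CCl4 libraries carry the genotype label Sting knock out and the treatment label of intraperitoneal CCl4 for 6 weeks. The oil libraries carry the labels wild type and intraperitoneal oil for 6 weeks. The design text gives 8 weeks for this model and names the vehicle as olive oil. Genotype and toxin differ together, so their parts in any difference cannot be told apart. Another group, wild-type mice given CCl4 (3 libraries), is used to show both CCl4 groups side by side. Strain, age and sex of the mice, the knockout allele, the CCl4 dose, and the time from the last injection to tissue collection are not given in the sources used here. The whole series holds 21 libraries, and whether each replicate is a different mouse is not stated, so a p-value speaks of library-to-library spread alone, which may be technical.

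CCl4 is a classic liver toxin. The cytochrome P450 enzyme CYP2E1, made by hepatocytes around the central vein, turns it into radicals that kill those cells, and repeated dosing leads to inflammation, activated stellate cells that lay down collagen, and regrowth of hepatocytes. STING is a membrane adaptor that senses the second messenger made by cGAS on cytosolic DNA. It recruits the kinase TBK1, which activates the transcription factor IRF3 and interferon genes, and it feeds NF-kB signalling. In the liver STING is known mainly from macrophages and other non-parenchymal cells.

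Of the 10259 coding genes, 809 were higher and 625 were lower in the libraries labelled Sting knockout than in oil, which is 7.89% and 6.09% of them and 14.0% together. Calls rest on limma's moderated test of log2(FPKM + 1) with Benjamini-Hochberg adjustment over all 11309 genes tested, at a threshold of 0.05. Over all of these, 7.54% were higher and 6.16% lower, 13.7% together. All fold changes below are differences of group means on this log2(FPKM + 1) scale, where changes of weakly expressed genes come out too small, with their standard error (SE) and n = 3 against 3. The largest rises were in genes of injured epithelium, collagen, contractile stellate cells and mitosis. The largest falls were in major urinary proteins, pericentral cytochromes and genes that growth hormone supports in male liver. Of the genes that rose, 648 rose by at least 1, 156 by at least 2 and 37 by at least 3. Of those that fell, 409 fell by at least 1, 68 by at least 2 and 31 by at least 3. Of the 809, 808 had no overlap between the groups, as did all 625, where 38.4% of all 10259 had none. With libraries scaled to equal sums, the median of all genes tested moved from -0.05 to 0.20, and the counts over all genes went from 853 higher and 697 lower to 1171 and 256. On recovered reads edgeR gave 1047 and 527, and a floor of 5 FPKM gave 290 and 493. Levels are given as a description, since the oil level is an arm of the call: 346 of the 809 had an oil mean under 1 FPKM and passed the filter through the group where they are high. Genes that rose had a median of 1.22 FPKM in oil, and genes that fell had a median of 18.1 FPKM, against 5.52 FPKM over all 10259. The share called higher was 11.2% among genes with a mean under 5 FPKM and 2.46% among those of at least 100 FPKM. The share called lower went from 3.09% to 13.8% over the same classes.

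**Figure D1:**
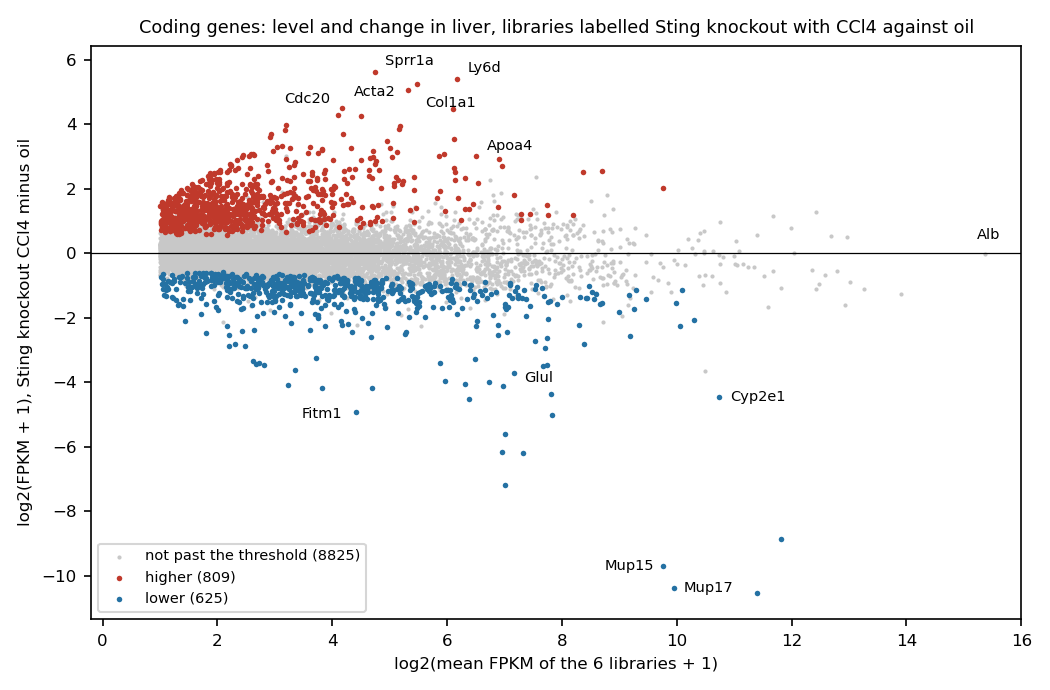
Each point is 1 coding gene (10259), with log2 of its mean FPKM over the 6 libraries plus 1 on the x axis and the difference in log2(FPKM + 1), Sting knockout CCl4 minus oil, on the y axis. The 809 red points were called higher and the 625 blue points lower. The deepest falls, down to -10.53, belong to the Mup genes, and Sprr1a rose most, by 5.63.

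Promoter sequences are shown for genes at both ends of this range. RefSeq promoters (build GRCm38.p6, the mm10 assembly, 250 bases before to 50 after a start) matched 8119 of the 10259 genes by symbol. Each stretch below is the 130 bases before the RefSeq start or the start in the deposited table, whichever lies farther upstream, read 5′ to 3′ on the gene's strand. The first 3 belong to genes of mitosis that rose. Capitals mark CCAAT and TTTGAA, on either strand, so ATTGG marks a CCAAT of the opposite strand. CCAAT is the box bound by NF-Y, and TTTGAA is the core of the cell cycle homology region (CHR). The first stretch lies at chr4:118437353-118437482 on the minus strand, the second at chr2:164769768-164769897 on the plus strand and the third at chr9:70421555-70421684 on the minus strand.
Cdc20: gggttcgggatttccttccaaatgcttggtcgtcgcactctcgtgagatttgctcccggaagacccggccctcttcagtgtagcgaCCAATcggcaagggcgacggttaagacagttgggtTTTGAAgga
Ube2c: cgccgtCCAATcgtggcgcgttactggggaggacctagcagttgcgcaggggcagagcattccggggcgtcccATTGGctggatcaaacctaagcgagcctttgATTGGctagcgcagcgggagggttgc
Ccnb2: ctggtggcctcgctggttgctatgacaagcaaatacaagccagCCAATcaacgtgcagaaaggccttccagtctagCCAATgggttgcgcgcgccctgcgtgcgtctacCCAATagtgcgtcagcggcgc

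Within the whole promoters, CCAAT stood in 22 of the 29 cell cycle genes that had one (75.9%), against 39.2% of the 8119 coding genes and 37.4% of all 32851 RefSeq promoters. TTTGAA stood in 12 of the same 29 (41.4%), against 12% and 17.9%, and also in 19 of 47 drug-metabolising enzymes (40.4%), a list with lower calls and none higher. Over all called genes, CCAAT stood in 40.1% of promoters of genes that rose and 40.1% of those that fell, and TTTGAA in 17.6% and 13%. The TATA letters TATAAA stood in 40.4% of the promoters of the same 47 enzymes, against 7.24% of the coding genes, and in 9.98% of promoters of genes that rose and 10.1% of those that fell. The AP-1 letters TGANTCA stood in 7.73% of promoters of genes that rose and 6.82% of those that fell, against 5.0% of the coding genes. The E2F letters TTTCCCGC stood in 2.25% and 1.86%. The other motifs searched, TCACGTGA (the CLEAR E-box), CAAAGTCCA (HNF4) and an HNF1 motif, stood in at most 1.24% of either. All motifs were searched on both strands. A match describes letters in a window and is not evidence of binding.

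The gene with the largest rise, Sprr1a, had both an AP-1 and a TATA match in the stretch at chr3:92485896-92486025 on the minus strand, with TGAGTCA and TATAAA in capitals.
Sprr1a: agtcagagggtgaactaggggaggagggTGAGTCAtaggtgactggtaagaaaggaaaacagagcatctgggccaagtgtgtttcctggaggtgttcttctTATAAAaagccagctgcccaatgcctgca

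Mup15 and Mup17, among the genes with the deepest falls, are shown because their upstream stretches are near copies of each other. The stretches of Mup15 (chr4:61439744-61439873) and Mup17 (chr4:61595872-61596001), both on the minus strand, carry in capitals the runs of at least 20 bases found in the other stretch: 124 of 130 bases in Mup15 and 123 of 130 in Mup17.
Mup15: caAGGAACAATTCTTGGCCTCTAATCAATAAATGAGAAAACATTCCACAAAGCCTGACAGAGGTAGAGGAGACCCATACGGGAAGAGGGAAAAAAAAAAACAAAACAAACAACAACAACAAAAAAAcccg
Mup17: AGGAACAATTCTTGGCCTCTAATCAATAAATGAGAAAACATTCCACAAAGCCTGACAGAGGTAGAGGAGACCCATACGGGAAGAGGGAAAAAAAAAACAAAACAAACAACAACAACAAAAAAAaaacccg

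Sting1 RNA itself was not absent from the libraries labelled Sting knockout. Sting1 (ENSMUSG00000024349, chromosome 18, 35733678 to 35740554, mm10) stood at 3.42, 1.98 and 5.28 FPKM in replicates 1 to 3 of that group, or 136, 59 and 235 reads. It stood at 0.885, 1.23 and 1.46 FPKM in oil, or 31, 37 and 36 reads. All 3 libraries with the knockout label lay above all 3 oil libraries. The means were 3.56 ± 1.65 and 1.19 ± 0.292 FPKM (SD, n = 3), a difference of 2.37 FPKM for which the exact permutation test (two-sided) gave p = 0.1, the smallest that 3 against 3 allows. In limma's test the rise was 1.00 (SE 0.26, adjusted p = 0.029). That call was lost without any one of 5 libraries: adjusted p was 0.0787 and 0.0849 without replicates 1 and 3 of the libraries labelled Sting knockout, and 0.113, 0.0843 and 0.0652 without oil replicates 1, 2 and 3. Wild-type CCl4 libraries stood at 6.10, 5.15 and 4.74 FPKM, and Sting knockout minus wild type was -0.53 (95% confidence interval -1.11 to 0.04, limma adjusted p = 0.771). Sting1 RNA was thus present under the knockout label, and whether the genotype is as labelled was not tested. For that reason the group is called by its label here. Some null alleles leave RNA of the remaining exons, and a value per gene cannot show whether an exon is missing. The title codes of the libraries with the knockout label begin with SWT, a code the labels do not explain.

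The libraries varied in ways that touch the results. The table's values gave 14353483 to 16684832 reads per library once FPKM was turned back into reads. The first principal component of all 9 libraries (47.9% of the variance) set oil apart from both CCl4 groups. The second (22.6%) set replicate 2 of the libraries labelled Sting knockout apart from all others. That library deviated from its group with gene length, from 0.465 above the group mean (median log2) in the shortest of 5 length classes to -0.288 in the longest. Replicate 3 deviated the opposite way, from -0.352 to 0.183. The share of genes called higher was 11.9% in the shortest class and 2.78% in the longest (245 and 57 of 2052 genes each). Without replicate 2 these counts were 193 and 92, and the median difference of the shortest class went from 0.18 to -0.05. Without replicate 2, 796 coding genes were higher and 708 lower (7.76% and 6.9% of them, against 7.35% and 7.1% of all genes tested), and 689 of the 809 and 506 of the 625 were called again. All 6 compared libraries held RNA of the Y-linked gene Eif2s3y (9.18 to 16.2 FPKM). Wild-type CCl4 replicate 3 had 0 reads of it and Xist at 79.9 FPKM, where the other 8 libraries had Xist at 0.0129 FPKM or less, so that library has a female pattern. Beyond leaving libraries out and removing the length deviations, the part of these patterns in the results was not tested.

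Some genes named below were called only with all libraries in the fit. Casp1, H2-Eb1, Hbb-bs and Elovl3 lost their calls without any one of the 6 compared libraries. Bhmt, Gnmt, Pklr and Hmox1 did so without any one of these 6 other than replicate 2 of the libraries labelled Sting knockout. Cd207, Krt8, Ehd3, Orm2, Saa2, Ccl4, Cdkn1a, Cxcl14, Ikbke, Hba-a2, Mup7, Marco, Mt1, Ppara, Prox1, C1qb and Krt18 did so without each of 2 or more single libraries, and Gsta1, Nr1d2 and Tpm2 without 1 oil library. Their directions held in every setting run. Cry2, Hlf, Nr1d2, Nlrp12, Ehd3, Pklr, Ppara and Prox1, all lower, lost their calls at equal sums.

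**Figure D2:**
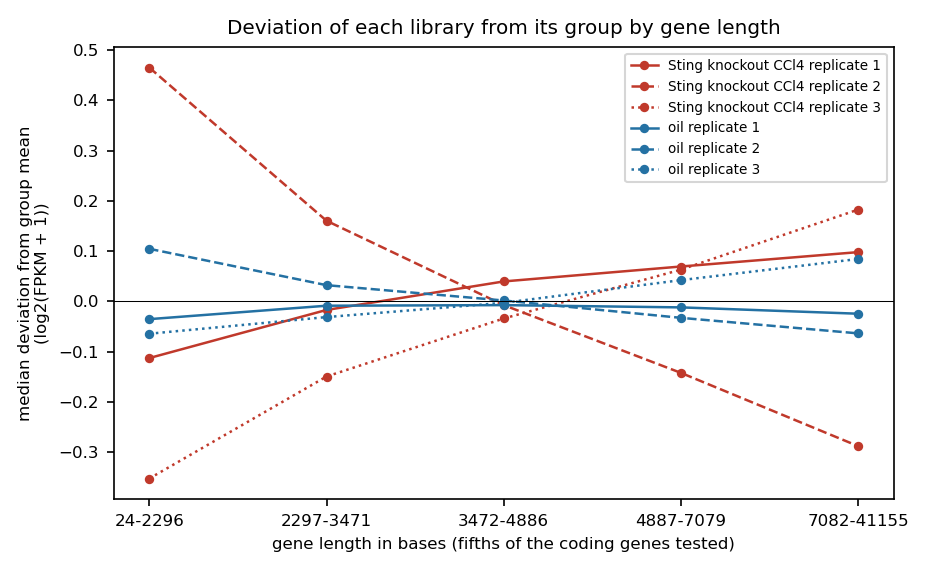
The x axis gives 5 equal classes of the 10259 coding genes by gene length in bases, and the y axis the median deviation of a library from its group mean in log2(FPKM + 1). Lines are the 3 Sting knockout CCl4 libraries (red) and the 3 oil libraries (blue). Replicate 2 falls from 0.465 to -0.288 and replicate 3 climbs from -0.352 to 0.183, while oil libraries stay between -0.0644 and 0.1045.

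Most collagen and matrix genes rose, with Col1a1, the gene of the main collagen I chain, first among them. Col1a1 stood at 62.4, 53.1 and 142 FPKM in the libraries labelled Sting knockout and at 1.54, 0.943 and 0.828 in oil. The groups did not come near each other, and the rise was 5.24 (SE 0.45, limma adjusted p = 9.89e-05). Col1a2, the partner chain of collagen I, rose by 4.25, Col3a1, the chain of collagen III, by 3.85, and Col6a3, a chain of beaded collagen VI filaments, by 2.74. Of 31 fibrillar and basement matrix genes, 20 were higher and 0 lower, with a median of 1.34, where the median of all coding genes was -0.05. Of 25 genes of matrix remodelling and TGF-beta, 15 were higher and 0 lower. Among these Mmp12, a macrophage elastase, rose by 3.70, Timp1, an inhibitor of metalloproteinases, by 3.29, Serpinh1, the collagen chaperone HSP47, by 2.98, and Lox, which crosslinks collagen, by 2.25.

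Part of the stellate cell and myofibroblast genes rose. Acta2, smooth muscle actin and the usual mark of an activated stellate cell, stood at 53.1, 86.0 and 91.5 FPKM against 1.36, 0.773 and 1.84 in oil. Every library with the knockout label was far above every oil library, and the rise was 5.05 (SE 0.63, limma adjusted p = 6.98e-04). Of 16 genes in this list, 8 were higher and 0 lower, among them the intermediate filament genes Vim (2.77) and Des (1.83) and the tropomyosin gene Tpm2 (1.76). Leaving out 1 library gave 3 to 8 higher. In bulk liver, more cells of a type and more RNA per cell cannot be told apart. Acta2 in wild-type CCl4 spread from 9.64 to 87.5 FPKM, and the difference between the CCl4 groups was 1.00 (95% confidence interval -0.39 to 2.40).

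Genes of recruited macrophages and neutrophils rose, as did a few of resident Kupffer cells. Gpnmb, a glycoprotein of lipid-laden macrophages, stood at 12.5, 12.6 and 23.7 FPKM against 0.0504, 0.0469 and 0.0575 in oil, where each library had 4 or 5 reads. Near absence in oil and clear presence in all 3 libraries gave a rise of 3.98 (SE 0.25, limma adjusted p = 2.2e-05). Of 23 recruited macrophage and monocyte genes, 18 were higher and 0 lower, with a median of 2.18. They include Lgals3, the galectin of activated macrophages (3.94), Cd63, a lysosomal tetraspanin (3.71), and Trem2, a lipid receptor of scar-associated macrophages (3.06). The summed FPKM of all 24 genes of this list, whether or not past the filter, was 1483 to 2313 with the knockout label and 449.5 to 496.1 in oil. Of 16 Kupffer cell genes, 4 were higher and 0 lower: the scavenger receptor gene Marco (3.14), the complement gene C1qb (1.80), the haem oxygenase gene Hmox1 (1.49) and the lectin gene Cd207 (0.85, adjusted p = 0.04997). Leaving out 1 library gave 1 to 6 higher Kupffer cell genes. The difference between these lists was not tested.

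Of 8 neutrophil genes, 7 were higher and 0 lower. Lcn2, lipocalin 2, which injured hepatocytes also make, stood at 102, 130 and 153 FPKM against 0.476, 7.17 and 15.0. The oil libraries all lay below those with the knockout label, and oil replicate 1 far below the other oil libraries; the rise was 4.46 (SE 0.77, limma adjusted p = 0.00385). The calprotectin genes S100a9 and S100a8 rose by 3.25 and 2.88, and the resistin-like gene Retnlg by 2.90. Few lymphocyte and dendritic cell genes were both annotated as coding and past the FPKM filter. Immunoglobulin and T cell receptor segments are annotated in other classes and were tested outside the members. Among 9 immunoglobulin constant genes 1 was higher, Ighg1 (1.79), and among 10 variable genes 1, Iglv1 (1.76). Among 3 T cell receptor constant genes 0 were higher, and 0 of any of these were lower. Of 3 coding T and NK cell genes and 3 dendritic cell genes 0 were called. Of 3 coding B and plasma cell genes 1 was higher, Cd79b, a chain of the B cell receptor (1.17, adjusted p = 0.0113). The summed FPKM of the B and plasma cell list, immunoglobulin segments included, was 66.01 to 499 against 32 to 43.72 in oil, highest in replicate 2. Of 7 MHC class II genes, 1 was higher, H2-Eb1 (1.39, adjusted p = 0.0491), and 0 were higher without replicate 2. In wild-type CCl4 against oil 5 of the 7 were higher, but the comparisons share the oil libraries, and no gene differed between the CCl4 groups.

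Chemokine genes rose in part. Of 23 NF-kB cytokine and chemokine genes, 8 were higher and 0 lower, and leaving out 1 library gave 3 to 10 higher. Ccl6, a macrophage chemokine, stood at 46.8, 33.5 and 44.6 FPKM against 4.58, 7.20 and 6.68, a rise of 2.58 (SE 0.33, limma adjusted p = 7.11e-04). Ccl7, a ligand of the monocyte receptor CCR2, rose by 2.19. Cxcl14, a chemokine of stromal and epithelial cells, rose by 2.197. Ccl4, an inflammatory chemokine (the gene, not the toxin), rose by 1.95, and its adjusted p was 0.101 without replicate 2.

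Of 13 genes in the STING pathway list, 2 were higher (15.4%, against 7.89% of all coding genes) and 0 lower: Sting1 and Ikbke, a kinase related to TBK1 (0.86, limma adjusted p = 0.0215). Tbk1 stood at 6.82, 4.55 and 7.17 FPKM against 6.47, 6.82 and 8.24 in oil, and Irf3 at 13.45, 20.2 and 10.6 against 17.1, 19.3 and 12.4. Both overlapped with oil, with adjusted p of 0.609 and 0.782. Cgas was under the filter at 0.80, 0.206 and 1.203 FPKM against 0.143, 0.167 and 0.159, with an exact permutation p of 0.1 (two-sided, n = 3 against 3). All 3 values lay above oil, but replicate 2, at 11 reads, lay just above it.

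Few interferon-stimulated genes passed the test. Of 35, 2 were higher and 0 lower, Ifi27l2a, an interferon-induced mitochondrial protein (2.23), and Oas1a, a sensor of double-stranded RNA (1.69). That is 5.71% against 7.89% of all coding genes, with a median of 0.75. Ifit3, which holds back viral RNA, and Igtp, an immunity-related GTPase, were picked after their values were seen as examples of a pattern in the wild-type group. Ifit3 stood at 7.14, 8.28 and 14.1 FPKM with the knockout label, 4.97, 9.29 and 6.87 in oil, and 45.8, 7.48 and 6.13 in wild-type CCl4. Igtp stood at 16.1, 23.5 and 19.8, then 10.7, 11.4 and 11.7, then 179, 21.2 and 13.6. The high values of the wild-type CCl4 group came from replicate 1 alone in both genes. The list's median in wild-type CCl4 against oil was 0.98, with 6 genes higher.

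Genes of the inflammasome and of pyroptosis, the lytic death it drives, held a few calls in each direction. Of 15 genes, 3 were higher (20%, against 7.89% of all coding genes) and 2 lower (13.3%, against 6.09%). Leaving out 1 library gave 2 to 5 higher. Pycard, the adaptor ASC, stood at 1.49, 2.30 and 1.59 FPKM against 0.190, 0.282 and 0.542, without overlap, and rose by 1.06 (SE 0.19, limma adjusted p = 0.00529). Casp1, the inflammatory caspase, stood at 5.19, 7.64 and 4.97 against 1.84, 3.01 and 3.002. It rose by 0.94 (adjusted p = 0.0327), and its adjusted p was 0.0742 without replicate 2. The third gene that rose was Il1rn, the natural blocker of the IL-1 receptor (1.75). Both genes that fell were sensors of other inflammasomes, Nlrp6 (-1.24) and Nlrp12 (-0.98). Nlrp3, the inflammasome sensor in the series' title, stood under the filter at 1.19, 0.133 and 0.879 FPKM against 0.405, 0.584 and 0.415. Its groups overlapped, with an exact two-sided permutation p of 0.4. Gsdmd, the pore-forming gasdermin D, stood at 13.8, 26.0 and 15.0 against 15.98, 16.5 and 11.8 (adjusted p = 0.663). The cytokine genes Il1b (adjusted p = 0.225) and Il18 (0.849) and the caspase gene Casp4 (0.0543) did not pass either.

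**Figure D3:**
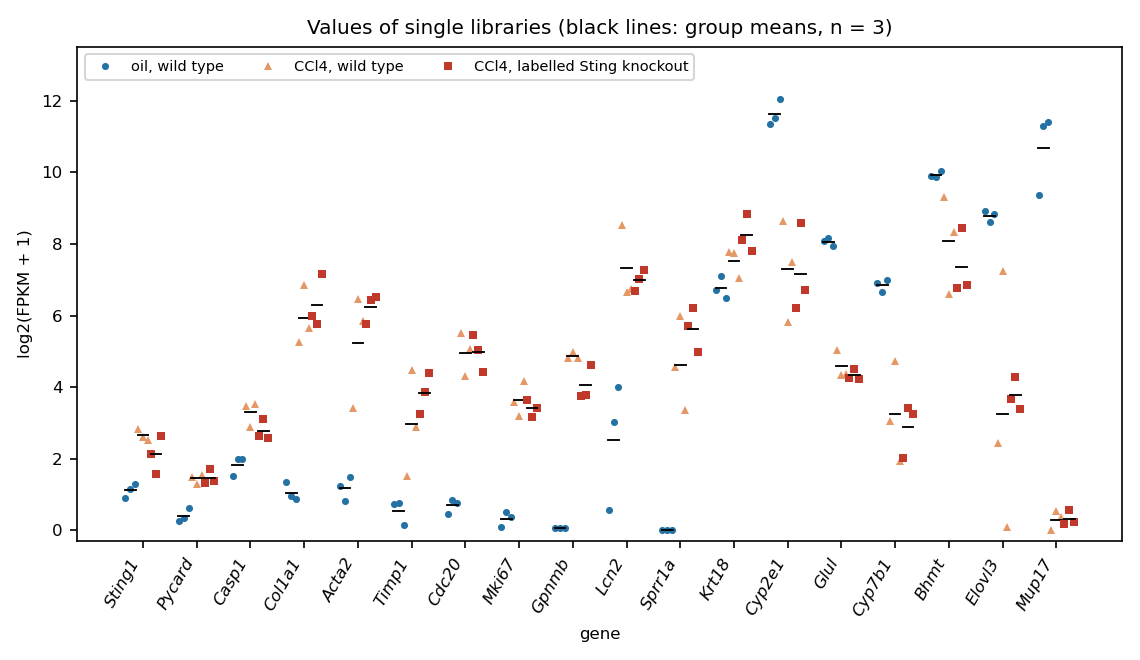
The y axis gives log2(FPKM + 1) and each point is 1 library: oil (blue circles), wild-type CCl4 (orange triangles) and CCl4 with the Sting knockout label (red squares), with black lines at group means (n = 3). Col1a1, Acta2, Cdc20, Gpnmb and Sprr1a lie near the bottom in oil and well above it in both CCl4 groups. Cyp2e1, Glul, Cyp7b1 and Mup17 show the reverse, and Elovl3 spreads most in wild-type CCl4.

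Cell cycle genes had the highest share called among the 43 lists. Of 38 genes, 37 were higher and 0 lower, with a median of 2.00, and 35 were higher without replicate 2. Cdc20, which activates the anaphase-promoting complex, stood at 43.1, 31.8 and 20.6 FPKM against 0.387, 0.818 and 0.702 in oil. The lowest library with the knockout label was many times the highest oil library, and the rise was 4.28 (SE 0.34, limma adjusted p = 6.96e-05). Ube2c, the ubiquitin-conjugating enzyme of the same complex, rose by 3.83 from 0, 4 and 9 reads in the oil libraries. Ccnb2, a mitotic cyclin, rose by 3.33, and Mki67, the Ki-67 proliferation marker, by 3.08. The one member not called was Tk1, thymidine kinase (0.48, adjusted p = 0.34). The summed FPKM of all 40 genes of the list, whether or not past the filter, was 286.3 to 401.4 against 44.92 to 52.98 in oil. Which cells carried this RNA is not shown by bulk libraries.

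Most genes on the list of injured epithelium rose, as did some cholangiocyte genes. Sprr1a, a cornified envelope protein that damaged epithelia make, stood at 51.2, 72.7 and 30.4 FPKM and at 0 in all 3 oil libraries. It was at least 176-fold higher, taking 3 reads per oil library as the floor, and the rise was 5.63 (SE 0.54, limma adjusted p = 1.66e-04). Ly6d, a surface protein of squamous and progenitor-type epithelium, stood at 93.3, 277 and 53.02 against 1.77, 1.13 and 2.14, a rise of 5.41 (SE 0.50, adjusted p = 1.3e-04). Replicate 2, the library that is high in short genes, was highest for both. Of 19 genes of epithelial injury and fetal liver, 12 were higher and 0 lower, also without replicate 2. S100g, the calcium carrier calbindin-D9k, which is in none of the lists, stood at 14.4, 79.2 and 8.29 FPKM against 0 in oil, at least 69.1-fold higher by the same floor. Of 10 cholangiocyte genes 4 were higher: the secreted matrix protein gene Spp1 (2.90), the annexin gene Anxa3 (2.02) and the keratin genes Krt18 (1.48) and Krt8 (1.19, adjusted p = 0.064 without replicate 2). Leaving out 1 library gave 2 to 5 higher in this list. Krt8 and Krt18 are also made by hepatocytes, and Spp1 also by macrophages.

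A minority of the genes of stress programmes rose: 20.8% of the unfolded protein list, 12.5% of p53 targets, 11.5% of NRF2 targets and 7.69% of heat shock genes, against 7.89% of all coding genes. Of 24 genes of the unfolded protein and integrated stress responses, 5 were higher (3 to 8 with 1 library left out), with Atf3, a stress transcription factor, at 7.13, 8.04 and 12.7 FPKM against 0.549, 0.816 and 0.478. It rose by 2.64 (SE 0.22, limma adjusted p = 9.32e-05). The serine synthesis genes Psat1 (1.92) and Phgdh (1.85) rose with it. Of 16 p53 targets 2 were higher, Phlda3 (2.02) and the cell cycle inhibitor gene Cdkn1a (1.55). Of 26 NRF2 targets 3 were higher (1 to 3 with 1 library left out), among them Gsta1, a glutathione transferase (2.95). Of 13 heat shock genes 1 was higher, the collagen chaperone gene Serpinh1.

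Part of the hepatocyte genes of the pericentral zone fell. Cyp2e1 stood at 73.1, 382 and 103 FPKM against 2590, 2923 and 4194 in oil. Replicate 2 held several times more than the other libraries with the knockout label, yet lay far below oil; the difference was -4.47 (SE 0.73, limma adjusted p = 0.00295). Glul, glutamine synthetase of the hepatocytes next to the central vein, stood at 18.0, 21.9 and 17.6 against 269, 286 and 243. These libraries hardly spread, and the difference was -3.73 (SE 0.27, adjusted p = 3.29e-05). Oat, ornithine aminotransferase of the same cells, fell by 4.36, Cyp2c37, another cytochrome P450 gene, by 4.12, and Cyp2a5, coumarin hydroxylase, by 4.51. Of 24 pericentral genes 12 were lower and 1 higher, with a median of -1.39. Of 23 periportal genes 4 were lower and 1 higher, with a median of -0.79, and leaving out 1 library gave 1 to 8 lower, with 8 without replicate 2. The difference between the zones was not tested. The periportal gene that rose was Apoa4, an apolipoprotein of lipid export, at 220, 162 and 101 FPKM against 24.8, 18.0 and 13.2, a rise of 3.02 (SE 0.34, adjusted p = 4.15e-04). Alb, albumin, stood at 40579, 62020 and 26823 against 34528, 38755 and 51786, overlapping with oil (adjusted p = 0.989).

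Part of the hepatocyte's metabolic enzymes fell. Of 42 urea cycle and amino acid breakdown genes, 21 were lower and 0 higher, with a median of -1.03, and leaving out 1 library gave 4 to 27 lower. Bhmt, which remethylates homocysteine with betaine, stood at 108, 345 and 114 FPKM against 946, 928 and 1044, a difference of -2.58 (SE 0.64, limma adjusted p = 0.0243). Gnmt, the glycine methyltransferase that uses up S-adenosylmethionine, fell by 2.07, and Prodh, proline dehydrogenase, by 2.18. Of 58 drug-metabolising enzymes 21 were lower and 0 higher, and 10 to 25 with 1 library left out. Of these Cyp4a12b fell by 4.16, Cyp4a12a, a male-biased fatty acid hydroxylase, by 4.07, and the sulfotransferase gene Sult2a8 stood at 10.8, 52.6 and 46.6 FPKM against 266, 313 and 523. Of 35 genes of fatty acid oxidation and its regulator PPAR-alpha, 9 were lower, 5 to 16 with 1 library left out, and 16 without replicate 2, which held the lowest value of Ppara (3.08 FPKM, against 12.4 and 13.2). Acsl1, which activates long-chain fatty acids, stood at 35.6, 37.5 and 31.8 against 115, 102 and 132 and fell by 1.70 (SE 0.24, limma adjusted p = 0.00152).

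Part of the bile acid genes fell. Of 29, 13 were lower and 2 higher, the oxysterol hydroxylase gene Cyp39a1 (1.09) and the efflux pump gene Abcc4 (0.80), and leaving out 1 library gave 7 to 15 lower. Cyp8b1, the sterol 12-alpha-hydroxylase that sets the share of cholic acid, stood at 4.99, 34.3 and 7.50 FPKM against 202, 155 and 227. It fell by 3.99 (SE 0.63, limma adjusted p = 0.00264), without overlap. Cyp7b1, of the alternative synthesis pathway and male-biased in mouse liver, fell by 3.96, and the uptake carrier genes Slco1a1 and Slco1b2 by 3.29 and 2.03. Of 34 hepatocyte identity genes 8 were lower (1 to 13 with 1 library left out), among them the transcription factor genes Prox1 (-1.44) and Nr1i3 (-1.30, the xenobiotic receptor CAR). Lipogenesis and cholesterol synthesis had 2 of 42 genes lower, the glycolytic gene Pklr (-1.09) and Elovl3, and 0 higher. The lower share was 4.76%, against 6.09% of all coding genes. Thrsp, which drives lipogenesis, spread from 19.3 to 599 FPKM among the libraries labelled Sting knockout, with replicate 2 the highest (adjusted p = 0.377).

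The Mup genes, which encode pheromone carriers that male liver makes under pulsed growth hormone, had the lowest median of the 43 lists. Of 19, 16 were lower and 0 higher, with a median of -3.62. Mup17 stood at 0.125, 0.50 and 0.167 FPKM, or 2, 6 and 3 reads, against 656, 2527 and 2725 in oil. The groups were orders of magnitude apart, and the difference was -10.37 (SE 0.46, limma adjusted p = 1.58e-06). Mup7 stood at 7.85, 2.02 and 125 against 4747, 8735 and 8028, and its call was lost without replicate 2 (adjusted p = 0.0547). Reads of near-identical copies can be split by the counting, so values of single Mup genes are uncertain. Mup3 and Mup20 differed from the rest in level: Mup3 stood at 2669, 6682 and 2664 against 7807, 11009 and 15950 (adjusted p = 0.171), and Mup20 at 653, 2215 and 773 against 1615, 2971 and 2832 (adjusted p = 0.395). Most of the Mup RNA left in the libraries labelled Sting knockout came from these 2 genes.

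Of 20 genes of the growth hormone and STAT5 axis 8 were lower and 0 higher. Hsd3b5, a male-biased steroid reductase, stood at 2.69, 2.69 and 8.48 FPKM against 208, 289 and 252, and fell by 5.62 (SE 1.04, limma adjusted p = 0.00557). Elovl3, a fatty acid elongase that is male-biased and clock-driven, stood at 11.7, 18.4 and 9.41 against 481, 389 and 452. It fell by 5.005 (adjusted p = 0.0303, and 0.0606 without replicate 2). In wild-type CCl4 the same gene spread from 0.072 FPKM in replicate 3, which has the female pattern, to 150 in replicate 2. Cyp2a4, a female-biased steroid hydroxylase, stood at 7.27, 39.9 and 1.10 against 0.227, 0 and 0.108, and did not pass (adjusted p = 0.136). Of 14 circadian clock genes 4 were lower (28.6%, against 6.09% of all coding genes). These were the repressor genes Nr1d1 (-2.17), Nr1d2 (-1.38) and Cry2 (-1.07) and the output regulator gene Hlf (-1.09). At equal sums 1 of the 14 was lower. The hours at which the tissue was taken are not given in the sources used here.

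With all libraries in the fit, 6 of 31 acute phase genes were higher (19.4%, against 7.89% of all coding genes). In the same fit 1 was lower (3.23%, against 6.09%). Without replicate 2, 2 of the 31 were higher and 1 lower, where 7.76% and 6.9% of all coding genes were. Mt1, metallothionein, stood at 57.1, 136 and 105 FPKM against 2.53, 14.9 and 27.0 and rose by 3.02 (limma adjusted p = 0.0181, and 0.0567 without replicate 2). Orm2, an orosomucoid, and Saa2, a serum amyloid, rose by 2.71 and 3.06, with adjusted p of 0.091 and 0.0971 without replicate 2. The shares called among complement and coagulation genes were 2.78% higher and 8.33% lower, against 7.89% and 6.09% of all coding genes. Of 36 genes 1 was higher and 3 lower (1 to 7 lower with 1 library left out). One of these, Cfd, factor D, which fat cells make in quantity, had 0 reads in all 3 libraries labelled Sting knockout and 61, 30 and 33 in oil, at least 16.7-fold lower by the floor of 3 reads per library. The fat cell hormone gene Adipoq was at 0 in all 6 libraries, and the part of fat cells in the Cfd values was not tested.

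Some lists had no called gene. Of 39 ribosomal protein genes 0 were called, with a median of 0.76, and replicate 2 held the highest summed level (6458 to 20420 FPKM across the group, 5527 to 7387 in oil). With libraries scaled to equal sums 18 of the 39 were higher. Of 34 nuclear genes of oxidative phosphorylation 0 were called, with a median of -0.29 that becomes 0.02 at equal sums. Without replicate 2 the median was -0.64, and 4 of the 34 were lower, where 6.9% of all coding genes were. That library held the highest summed level of this list too (1949 to 5365 FPKM across the group, 3630 to 4294 in oil). Of the 13 mitochondrially encoded genes 0 were called, though their summed level was 23240 to 35060 FPKM against 46020 to 96180 in oil. Of 23 sinusoidal endothelium genes 1 was higher, Cd34, a mark of capillary-type endothelium (1.02), and 1 was lower, Ehd3 (-1.07, adjusted p = 0.0624 without replicate 2). Each is 4.35% of that list, against 7.89% higher and 6.09% lower among all coding genes.

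**Figure D4:**
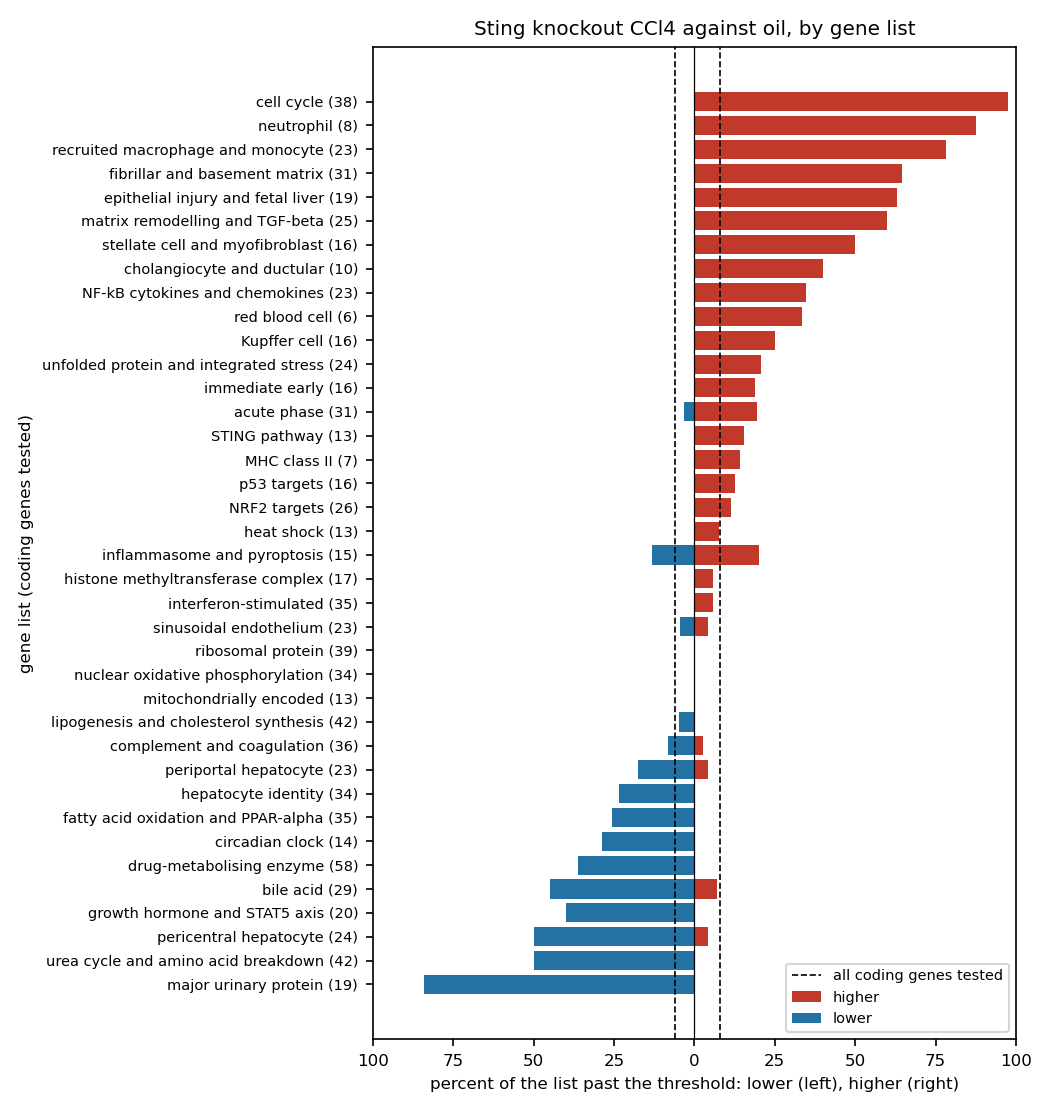
Bars give the percent of the coding genes tested in each list (their number in brackets) that were called higher (red, to the right) or lower (blue, to the left), Sting knockout CCl4 against oil. Dashed lines mark the 7.89% higher and 6.09% lower among all 10259 coding genes. Cell cycle stands at the top with 37 of 38 higher, and the Mup genes at the bottom with 16 of 19 lower.

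Between the CCl4 groups themselves no gene was called. Of 11309 genes tested, 0 were higher and 0 lower (0.0%) in the libraries labelled Sting knockout than in wild-type CCl4 by limma, with 344 at an unadjusted p under 0.05 and a smallest adjusted p of 0.771. On reads recovered from the FPKM, edgeR also called 0 (463 at an unadjusted p under 0.05) and DESeq2 0 (658). Against the same oil libraries, wild-type CCl4 had 884 coding genes higher and 635 lower, 8.62% and 6.19% of them, against 8.14% and 6.37% of all genes tested. Single genes had wide intervals. For Col1a1 the difference was 0.38 (95% confidence interval -0.62 to 1.38), for Cdc20 0.01 (-0.74 to 0.77) and for Cyp2e1 -0.15 (-1.76 to 1.46). A p that misses the threshold does not show that the groups were alike, and the Cyp2e1 interval holds a difference of more than 1 in either direction.

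Among called coding genes, the 5 largest differences between the CCl4 groups were those of Mup18, 2 globin genes, CR974586.3 and Upp2. Because they were picked by the size of this difference, an interval that leaves out 0 is no test of it. Mup18 differed by -2.28 (95% confidence interval -4.37 to -0.19), with 0, 22.4 and 8.79 FPKM in wild-type CCl4 and 0.997, 0 and 0 with the knockout label. CR974586.3, a gene model without a descriptive symbol, differed by 1.69 (0.59 to 2.80). Hbb-bs, an adult beta globin, stood at 1130, 1770 and 1194 FPKM with the knockout label, 557, 241 and 157 in wild-type CCl4, and 154, 500 and 476 in oil. The libraries labelled Sting knockout lay above all others, with a difference from wild-type CCl4 of 2.27 (95% confidence interval 1.05 to 3.49, limma adjusted p = 0.771). Hba-a2, an alpha globin, differed by 1.99 (0.80 to 3.18). Against oil both were called (2.00 and 2.26), but with adjusted p of 0.0907 and 0.0556 without replicate 2. The summed FPKM of 9 red blood cell genes, whether or not past the filter, was 1901 to 3058 with the knockout label. It was 277.3 to 1101 in wild-type CCl4 and 352.9 to 974.4 in oil. Alas2, the haem enzyme of red cell precursors in the same list, was not higher, at 38.7, 36.2 and 37.3 against 55.4, 69.3 and 74.5 in oil. How much blood the tissue held was not tested. Upp2, a liver uridine phosphorylase, stood at 3.52, 6.81 and 2.44 with the knockout label, 22.3, 9.70 and 13.8 in wild-type CCl4, and 22.8, 17.6 and 29.3 in oil. It was lowest in every library labelled Sting knockout, by -1.64 (-2.45 to -0.84) against wild-type CCl4. Gpnmb was lower by 0.82 on that scale (interval of the difference -1.36 to -0.27) and Ccl6 by 0.76 (-1.48 to -0.04); these intervals are for single genes and are not adjusted.

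**Figure D5:**
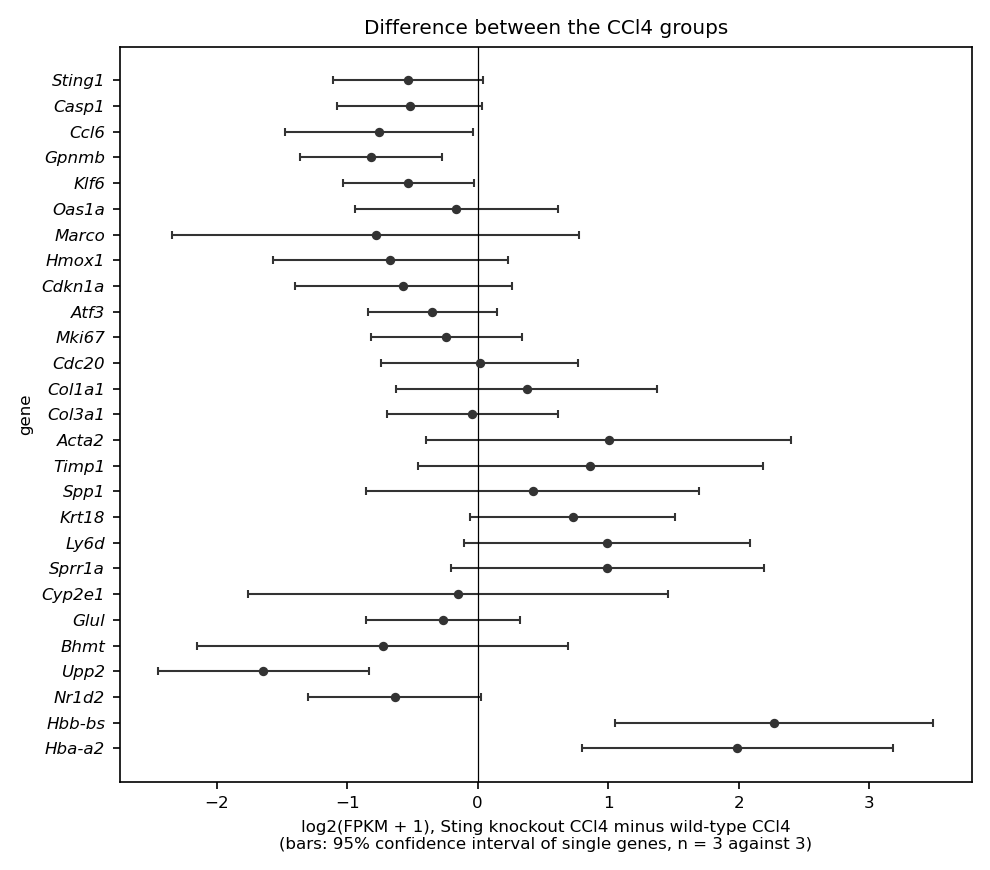
The x axis gives the difference in log2(FPKM + 1), Sting knockout CCl4 minus wild-type CCl4, for 27 genes, with bars for the 95% confidence interval of each gene alone (n = 3 against 3). Most bars cross 0. Hbb-bs and Hba-a2 lie to the right of it, and Upp2, Gpnmb, Ccl6 and the immediate early gene Klf6 to the left; 0 of these differences passed the adjusted threshold.

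Within the libraries labelled Sting knockout, the genes that varied most were of several kinds. Igfbp5, a growth factor binding protein, stood at 2.29, 3.46 and 49.7 FPKM, and Msln, mesothelin of the liver surface, at 2.25, 7.06 and 32.1. Both were highest in replicate 3 and overlapped with oil (5.15, 3.12 and 3.02 for Igfbp5, and 2.21, 2.31 and 0.576 for Msln). Slc10a5, a carrier of the bile acid transporter family, stood at 12.2, 0.394 and 11.3, lowest in replicate 2. Neither Igfbp5 (limma adjusted p = 0.484) nor Slc10a5 (0.111) passed the test against oil.

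Genes annotated in other classes than protein-coding were tested beside the 10259. These are mostly pseudogenes and long noncoding RNAs, but also immunoglobulin and T cell receptor segments and polymorphic pseudogenes, some of which encode proteins. Of 1050 such genes, 44 were higher (4.19%) and 72 lower (6.86%) in the libraries labelled Sting knockout, or 116 of 1050 together (11%). Over all 11309 genes tested, 7.54% were higher and 6.16% lower, or 13.7% together. Of 97 antisense genes 1 was higher and 19 lower, and of 132 lincRNA genes 7 were higher and 18 lower. Whether the counting used strand is not stated, so reads of an antisense gene and of its partner cannot be told apart.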

How the data were processed

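Liver RNA was sequenced from total RNA extracted with TRIzol, per the labels' protocols. The submitters' processing notes name HISAT2 2.2.1, featureCounts 1.5.0-p3 and the build mm10, with no order of steps. The strandedness of the counting is not stated. The authors deposited FPKM for 54532 genes in 9 liver libraries of this model, per the file headers. Multiplying FPKM by gene length and dividing by the smallest increment in each library returned whole reads for 100% of values (within 0.05). Library totals of the 3 groups were 14353483 to 16684832. The steps implied library sizes within -2.26% to 1.41% of median-ratio (RLE) factors, so FPKM was used without rescaling. A second table of the series, in which the authors deposited raw counts, was not used for any comparison here.

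The 9 libraries shared 1 fit in limma 3.58.1 (R 4.3.3, intensity trend) on log2(FPKM + 1), with a floor of 1 FPKM on the mean of the 6 compared libraries; tests were two-sided, and a gene was called at a Benjamini-Hochberg adjusted p under 0.05. Single values used exact permutation tests. edgeR 4.0.16 and DESeq2 1.42.0 on recovered reads were alternatives. Scripts were tested on simulated data. Of 100 genes changed 2-fold in FPKM + 1, limma called 25%, and of 100 changed 4-fold it called 82%. It also called 5 unchanged genes. The filter passed 621 coding genes with an oil mean under 1 FPKM (346 called higher) and 201 with a knockout-label mean under 1 (62 called lower); at the threshold, Thg1l had a mean of 1.00 and Ercc6l2, left out, 0.999. Named genes were 11 of the STING and inflammasome pathways, the 12 largest rises and falls without overlap, up to 4 called genes per list, and those most variable, most different between CCl4 groups or most abundant. Tk1, Alas2, Mup3, Mup20, Cyp39a1, Ifit3 and Igtp fall outside this rule and were chosen after their values were seen. The members and the 43 gene lists were chosen with earlier results of these data known. Sting1 and Cgas are Tmem173 and Mb21d1 in the deposited table.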

Additional observations from a re-analysis of the deposited data

How the results depend on the processing

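Over all 11309 genes, the 853 higher and 697 lower calls against oil became 290 higher with a floor of 5 FPKM and 256 lower at equal sums. Leaving out 1 library gave 508 to 979 higher and 258 to 834 lower. The counts were lowest without an oil library: 522 and 331 without oil replicate 1, 556 and 301 without replicate 2, and 508 and 258 without replicate 3. They were 651 and 428 without the first library labelled Sting knockout and 647 and 397 without the third, so lower calls moved by over 1.5 times there. For wild-type CCl4 against oil, 921 higher became 270 (floor of 5 FPKM), 1607 (equal sums) and 1626 (array weights), and 720 lower became 207, 2025 and 1101 (equal sums, array weights, DESeq2). Left-out libraries gave 594 to 1123 higher and 284 to 1216 lower there. Between the CCl4 groups the count was 0 in every setting run. Of 120 called genes named in the text or its rule, 58 kept their call in all 25 settings, 17 more in the 24 that gave them a value (109 of the 141 named genes have one at the floor of 5 FPKM), and 0 reversed; a length correction was chosen after seeing the data. With the replicate block, the counts against oil were 1039 higher and 976 lower, and Sting1 rose by 0.9998 in limma (adjusted p = 0.02801). Deviations from the group means correlated by 0.02, 0.17 and 0.09 between same-numbered libraries labelled Sting knockout and oil. Between libraries of different numbers they correlated by -0.23 to 0.09. These values cannot decide whether the numbers pair mice, and the main fit did not pair them. Arms of 2 libraries borrow their spread from the shared fit, and depth of 14353483 to 16684832 reads limits genes near 1 FPKM.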

Other observations

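Some genes outside all 43 lists changed as much as those in them; they were chosen after their values were seen. Fitm1, which helps form fat droplets, stood at 0.179, 0.478 and 0.373 FPKM in the libraries labelled Sting knockout and at 51.9, 34.9 and 34.2 in oil, a difference of -4.92 (SE 0.22, limma adjusted p = 1.58e-06). Susd4, a complement inhibitor, fell by 3.47, from 9.91, 12.3 and 13.4 FPKM in oil to at most 0.348. Lhpp, a histidine phosphatase, fell by 3.26, with values of 1.05 to 1.73 against 21.0 to 23.8 FPKM. Car3, carbonic anhydrase 3, and G0s2, an inhibitor of lipolysis, fell by 2.24 and 2.09, and replicate 2 had the highest value of each among the libraries labelled Sting knockout.

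Akr1c18, a hydroxysteroid dehydrogenase, stood at 17.9, 12.5 and 8.31 FPKM against 0.109, 0.127 and 0.0776, a rise of 3.59 (SE 0.45, limma adjusted p = 6.91e-04). The actin-capping gene Capg rose by 3.25, the annexin gene Anxa1 by 3.28, the microtubule gene Stmn1 by 3.25 and the myosin light chain gene Myl9 by 3.10. Pkm, a pyruvate kinase of dividing and non-hepatocyte cells, rose by 2.30, while Pklr, the hepatocyte form, fell by 1.09. Each of these 6 rises was also called without replicate 2.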
